A study of Mus musculus with 59 samples.

Results

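The mitochondrial genome genes are the 37 genes whose symbol begins with mt-, of 39017 gene identifiers in the RNA tables. They comprise 13 protein genes, 2 rRNA genes and 22 tRNA genes. The rule uses the symbol alone and no measured value. All 37 were placed on the mitochondrial chromosome by the RefSeq annotation of the mouse assembly GRCm38.p6, and all 37 gene lengths in the tables equalled the RefSeq lengths.

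The mitochondrial genome is a small circular DNA that is transcribed from both strands into long precursor RNAs. The tRNAs lie between most of the other genes and serve as cutting points, so that the rRNAs, the mRNAs and the tRNAs are released from shared precursors. The rRNAs (mt-Rnr1 of the small subunit, mt-Rnr2 of the large subunit) form the core of the mitochondrial ribosome. The protein genes encode subunits of respiratory complexes I, III and IV and of the ATP synthase (complex V), whose other subunits are encoded in the nucleus. Embryonic stem cells are known for immature mitochondria and for a strong reliance on glycolysis.

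The series measured RNA in 35 libraries of mouse embryonic stem cells of a 129xC57Bl6 hybrid background, grown on gelatin with LIF at 37 °C. The floxed set held 23 libraries of a line with the genotype Rosa26:CRE, DGCR8 Flox/Flox (called the DGCR8 line) and of a line with the genotype Drosha Flox/Flox (the Drosha line), for which the labels name no Cre. Each line received 0.5 µM 4-hydroxytamoxifen (4OHT), which activates tamoxifen-dependent Cre enzymes, for 24, 48 or 96 h, or no 4OHT for the same times. There were 2 libraries per group, except 1 for the Drosha line after 96 h of 4OHT. Dgcr8 and Drosha encode the Microprocessor, the nuclear enzyme complex that starts microRNA processing. The heat set held 12 libraries of cells that all carry Rosa26:BirA and FLAG/Avi-tagged DGCR8. Its 6 cell lines were parental 1, parental 2 and 4 METTL3KO lines (1d1, 3xU, 1d2 and 2c4d), each with 1 library at 37 °C and 1 after 1 h at 42 °C. Mettl3 encodes the enzyme that writes N6-methyladenosine on nuclear transcripts. The labels do not say whether the libraries of a group came from separate cultures, or whether parental 1 and parental 2 are separate lines. The p-values therefore measure only the spread between these libraries, which may be technical. In the floxed set, the titles and the source names disagree on treatment for replicate 1 of each 4OHT group and replicate 2 of each control group, and the titles were followed.

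Library totals were 9578093 to 12611084 counts in the floxed set and 7102867 to 13579892 in the heat set. Levels are given as nuclear CPM, which are counts scaled to 1000000 counts outside the mitochondrial genome, and, between genes, as nuclear CPM per kb of gene length. On the first scale Drosha RNA lay at 29.3 to 37.7 in the 4OHT libraries of the Drosha line and at 106 to 161 in its controls. Dgcr8 RNA was higher in every library titled 4OHT, without overlap, at 249 to 337 against 127 to 166 in the DGCR8 line and at 360 to 467 against 99.8 to 149 in the Drosha line. The counts cover the whole gene and do not show the deleted part. All 10 embryonic stem cell markers were present in every set, with a summed level of 3261 to 6560. The 8 fibroblast markers summed to 21.3 to 60.3 in the Drosha line and to 4.74 to 8.45 in the DGCR8 line, and Lum had a median of 0 over the 35 libraries. In the heat set, title numbers 24 to 29 were parental 1, 1d1 and 3xU, and 30 to 35 were parental 2, 1d2 and 2c4d. These runs of 6 libraries each did not overlap in mt-Co1 and mt-Nd6. mt-Co1 ran from 4029 to 6311 in the first run of numbers and from 6668 to 9704 in the second. mt-Nd6 ran from 96.9 to 249 and from 61.8 to 81.5. The runs overlapped for mt-Rnr2 (94675 to 180700 and 178804 to 220023) and for mt-Nd5 (731 to 1287 and 634 to 815). The share of all genes without overlap is not given. The labels name no batch for these runs, and each run holds 1 parental and 2 METTL3KO lines at both temperatures. RNA had been depleted of ribosomal RNA before sequencing, so every share below is a share after depletion, and the part played by the depletion was not tested. In bulk RNA, a smaller number of cells of a type and less RNA per cell cannot be told apart, nor can fewer mitochondria per cell and less RNA in each.

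Mitochondrial counts were mainly rRNA. The 37 genes together took 12.3% to 33.4% of all counts, with a median of 17.4% over the 35 libraries. The rRNA genes alone took 11.2% to 31.8% (median 16.4%), while the tRNA genes took 0.00966% to 0.0276%. The protein genes took 0.916% to 3.21% of the counts outside mitochondrial rRNA (median 1.29%). Each count on a protein gene was accompanied by 9.69 to 22.6 rRNA counts (median 14.2).

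**Figure D1:**
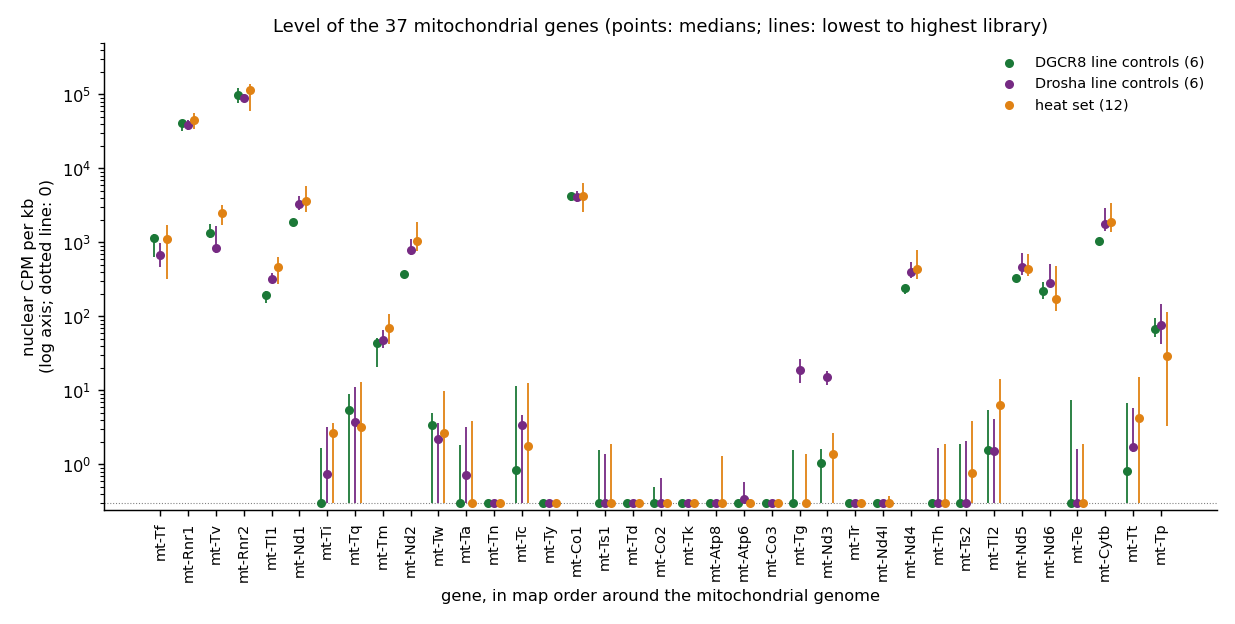
Level of each of the 37 mitochondrial genes in map order (horizontal axis), in nuclear CPM per kb on a log axis; points are medians and lines run from the lowest to the highest library of the 6 DGCR8 line controls, the 6 Drosha line controls and the 12 heat set libraries. mt-Rnr2 and mt-Rnr1 lie above all other genes, and the genes from mt-Co2 to mt-Nd4l lie at or near 0, except mt-Tg and mt-Nd3 in the Drosha line.

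Per kb, mt-Rnr2 (MT 1094 to 2675, 1582 bases) was the highest of the genes compared and mt-Rnr1 (MT 70 to 1024, 955 bases) the next. Their medians over 35 libraries were 99751 and 42189 nuclear CPM per kb, and mt-Rnr2 was above mt-Rnr1 in 35 of 35 libraries, by 1.75 to 3.53 times. mt-Co1 (MT 5328 to 6872), a catalytic subunit of complex IV, led the protein genes, and mt-Rnr2 was 17.1 to 32.4 times higher per kb than mt-Co1. mt-Nd1 (MT 2751 to 3707), a membrane subunit of complex I that follows mt-Rnr2 on the same strand, came next: mt-Co1 exceeded it in 31 of 35 libraries, with a median ratio of 1.41. mt-Nd1 exceeded mt-Cytb, the cytochrome b of complex III, in 35 of 35, and mt-Cytb exceeded the complex I subunit mt-Nd2 in 35 of 35. Below these, neighbours in the order changed places between libraries. mt-Nd2 was above mt-Nd5 in 31 of 35, mt-Nd5 above mt-Nd4 in 28 of 35, and mt-Nd4 above mt-Nd6 in 28 of 35, all 4 being complex I subunits. mt-Nd6 is the 1 protein gene on the other strand. It shares 14 bases with mt-Nd5, and because the strand setting of the counting is not given in the sources used here, reads over those bases cannot be divided between them.

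The make-up of the protein counts differed between lines. mt-Co1 held 55.4% to 66.5% of them in the DGCR8 line, 37.4% to 52.1% in the Drosha line and 28.6% to 54.4% in the heat set. mt-Nd1 held 14.3% to 19.0%, 18.8% to 25.3% and 18.6% to 29.6% in the same order. The ranges of the DGCR8 and Drosha lines did not overlap for mt-Co1, and overlapped at their ends for mt-Nd1.

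Of the 22 tRNA genes, 5 had a median of at least 10 counts over the 35 libraries: mt-Tf (570), mt-Tv (967), mt-Tl1 (238), mt-Tm (31) and mt-Tp (38). The first 3 flank or separate the rRNA genes. Another 5 (mt-Tn, mt-Ty, mt-Td, mt-Tk and mt-Tr) had 0 counts in all libraries, and the other 12 lay between. In all, 14 mitochondrial genes passed the filter on low counts in the DGCR8 line and in the heat set, 16 in the Drosha line and 17 in the joint fit of both floxed lines. Those that did not pass are described here by their counts only.

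A stretch of the genome gave almost no counts. mt-Co2, mt-Atp8, mt-Atp6, mt-Co3 and mt-Nd4l, which encode subunits of complexes IV, V and I, lie between MT 7013 and MT 10173 (3161 bases) and together received 100 of 4498681 protein counts, or 0.00222%. Their totals over the 35 libraries ran from 1 to 40 counts per gene. mt-Nd3, which also lies in this stretch, had 23 to 126 counts per library in the Drosha line. It had 0 to 6 in the DGCR8 line and 0 to 7 in the heat set. mt-Tg beside it had 7 to 33 in the Drosha line and 0 to 1 elsewhere. mt-Co1, which ends just before this stretch, and mt-Nd4, which begins inside its last bases, had at least 24367 and 2241 counts in every library. RefSeq places pseudogenes of mitochondrial type on chromosome 1 of the same assembly: Gm10925 at chr1:24613971-24614651 has the length of mt-Atp6 (681 bases) and carries mt-Atp6 as a synonym, and Gm10222 at chr1:24612404-24612700 has the length of mt-Nd4l (297 bases). They lie 1270 bases apart, against 1269 bases between mt-Atp6 and mt-Nd4l. Gm10222 had 0 counts in all 35 libraries, and Gm10925 is not among the table's symbols. Reads that match both a mitochondrial gene and a nuclear copy could have been divided or dropped in the authors' counting, so the low values of these 5 genes are uncertain as measures of their RNA. mt-Co1 (1545 bases) has the same length as the nuclear gene Gm13340, which had 79 to 261 counts per library. The part played by nuclear copies was not tested.

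**Figure D2:**
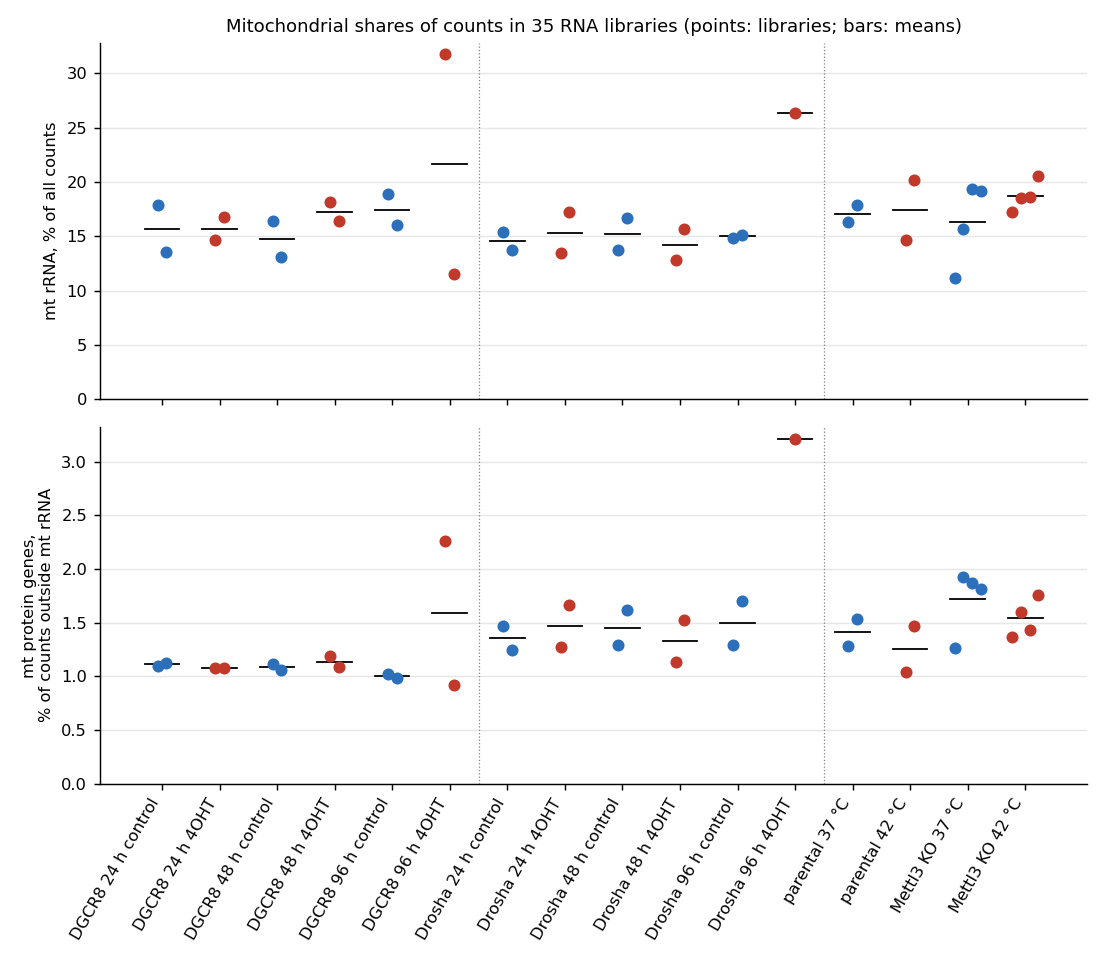
Share of all counts on the mitochondrial rRNA genes (upper panel, percent) and share of the counts outside mitochondrial rRNA on the mitochondrial protein genes (lower panel, percent); each point is a library and each bar a group mean, with controls and 37 °C in blue and 4OHT and 42 °C in red. After 96 h of 4OHT, 1 DGCR8 library (31.8%) and the single Drosha library (26.3%) lie above every other library in the upper panel, and the other DGCR8 library (11.5%) lies near the bottom.

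The effect of 4OHT was first asked of the shares over both floxed lines. The rRNA share was 11.5% to 31.8% in the 11 4OHT libraries (median 16.4%) and 13.1% to 18.8% in the 12 controls (median 15.3%). Averaged within line and time, the log2 difference was 0.19, which an exact two-sided permutation test within line and time did not separate from the spread (p = 0.226, adjusted over 15 share tests 0.377). The protein share was 0.916% to 3.21% with 4OHT and 0.982% to 1.70% without, a log2 difference of 0.27 (exact permutation p = 0.157, adjusted 0.377). Leaving out 1 library at a time, the rRNA difference ran from 0.071 without the Drosha 96 h 4OHT library (0.072 without DGCR8 96 h 4OHT replicate 1) to 0.32 without replicate 2 of that DGCR8 pair. The protein difference was 0.10, 0.16 and 0.38 without these 3 libraries, in the same order. The number of rRNA counts per protein count differed by -0.02 (exact permutation p = 0.810, adjusted 0.935). Without the 96 h libraries the protein share differed by -0.0029 and the ratio by 0.067 on the log2 scale.

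At 24 and 48 h, no mitochondrial gene was called by edgeR's quasi-likelihood test in either line. In the DGCR8 line 0 of 14 tested genes passed at 24 h, where 0.107% of all tested genes were called, and 0 of 14 at 48 h (1.48% of all genes). For the Drosha line 0 of 16 passed at 24 h (0.184% of all genes) and 0 of 16 at 48 h (2.82%). At both times and in both lines, 0 mitochondrial genes had an unadjusted p below 0.05 and 0 were called by DESeq2. mt-Rnr1 and mt-Rnr2 differed in the DGCR8 line by 0.04 ± 0.39 and 0.02 ± 0.46 (log2 fold change ± SE) at 24 h and by 0.23 ± 0.39 and 0.28 ± 0.46 at 48 h. The same genes differed in the Drosha line by 0.12 ± 0.16 and 0.09 ± 0.17 at 24 h and by -0.19 ± 0.16 and -0.08 ± 0.17 at 48 h. The protein genes with the smallest p were mt-Nd6 (0.38), mt-Nd5 (0.17) and mt-Cytb (-0.14) in the DGCR8 line at 24 h, and mt-Cytb (-0.29), mt-Nd4 (-0.18) and mt-Co1 (0.17) at 48 h. In the Drosha line they were mt-Nd2 (0.34), mt-Nd5 (0.28) and mt-Nd4 (0.24) at 24 h and mt-Nd6 (-0.54), mt-Nd2 (-0.19) and mt-Cytb (-0.18) at 48 h.

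At 96 h, mitochondrial RNA was high in the single 4OHT library of the Drosha line. mt-Rnr2 stood at 298568 nuclear CPM there, against 140269 and 139984 in the 96 h controls and at most 168336 in any other library of the line. mt-Nd1 stood at 8397, against 3233 and 4035 in those controls, and mt-Co1 at 13186, against 5424 and 6477. In this library 15 of the 16 tested genes were above all 10 other libraries of the line, the exception being mt-Tp. The share of all genes above those 10 libraries is not given here, so this count describes these genes only. For this library, the ratio to the mean of the 96 h controls ran from 0.668 to 2.70 with a median of 2.08. Its rRNA share was 26.3% (95% Wilson interval 26.28% to 26.33%, which covers counting error only) and its protein share 3.21%. Its source name, unlike its title, calls it a control, but its Drosha RNA was 29.3 nuclear CPM, against 133 and 161 in the 96 h controls. Some marker sums differed there too: the primitive endoderm markers summed to 129, against 80.8 and 83.2 in the 96 h controls. The neuroectoderm markers summed to 145, against 105 and 112. They already summed to 141 and 139 with 4OHT at 48 h, against 103 and 102 in the 48 h controls. The fibroblast markers summed to 24.5, between the 21.3 and 35.5 of the 96 h controls. The stem cell markers summed to 3429, the lowest of the line, against 3787 and 4217. Their part in the result was not tested.

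edgeR called 12 of the 16 genes higher, where 23.7% of all genes were called and 12.7% were higher. Because the group has 1 library, the fit assumes that it varies like the other groups of the line, and its own spread cannot be checked. The DGCR8 pair under the same treatment and time stood at 407334 and 108932 nuclear CPM for mt-Rnr2. The median log2 fold change was 1.11 over the 16 mitochondrial genes and -0.01 over all genes tested. In this fit, mt-Rnr2 was higher by 1.14 ± 0.20 (log2, SE) and mt-Rnr1 by 0.91 ± 0.19 (edgeR adjusted p = 0.00356). Of the protein genes, 7 were higher: mt-Nd1 by 1.26 ± 0.18 (adjusted p = 0.000251), mt-Nd4 by 1.24 ± 0.23, mt-Co1 by 1.20 ± 0.22, mt-Nd5 by 1.13 ± 0.21, mt-Cytb by 1.08 ± 0.24, mt-Nd2 by 1.05 ± 0.23 and mt-Nd3 by 1.48 ± 0.41. Of the tRNA genes, mt-Tl1 was higher by 1.35 ± 0.19, mt-Tm by 1.08 ± 0.30 and mt-Tf by 0.61 ± 0.20 (edgeR adjusted p = 0.0421). The 4 genes that did not pass were mt-Tv (0.72), mt-Tg (1.32, edgeR adjusted p = 0.0537), mt-Nd6 (0.91) and mt-Tp (-0.51). DESeq2 called 11 of 16. Calls for mt-Tf, mt-Tm and mt-Nd3 were lost when a 96 h control was left out (replicate 1 for all 3, replicate 2 for mt-Tf and mt-Nd3). With scaling by library totals alone the median of all genes moved to -0.30 and that of the mitochondrial genes to 0.82, 10 mitochondrial genes were called higher, and the calls over all genes were 907 higher and 4044 lower, against 2066 and 1788 with TMM scaling.

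The difference between the 96 h and the 24 h effect was tested in the same fit, and it uses the same 96 h libraries. In the Drosha line 5 of 16 genes passed, all higher, where 11.6% of all genes were called and 6.33% were higher. They were mt-Nd1 (1.20 ± 0.23), mt-Co1 (1.14 ± 0.29), mt-Tl1 (1.09 ± 0.25), mt-Rnr2 (1.05 ± 0.26) and mt-Nd4 (1.00 ± 0.30), and mt-Rnr1 stood at 0.79 ± 0.25 (edgeR adjusted p = 0.0551). This count was 1 without replicate 1 of the 24 h controls, 1 without replicate 1 of the 24 h 4OHT libraries, 3 without replicate 2 of the 24 h controls and 10 when only the groups compared were fitted. With library totals alone, 376 of all genes were higher and 2281 lower, against 1029 and 851.

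In the DGCR8 line, the 4OHT libraries at 96 h did not resemble each other. mt-Rnr2 stood at 407334 nuclear CPM in replicate 1 and at 108932 in replicate 2, on either side of the controls (192370.4 and 153375). mt-Nd1 stood at 4312 and 1761, against 1900.0 and 1726 in the controls, and mt-Co1 at 13247 and 5122, against 5834 and 5542. Replicate 1 lay above all 10 libraries of the line outside the pair in 14 of the 14 tested genes. It lay at 1.46 to 2.75 times the mean of the 96 h controls (median 2.01). Replicate 2 lay above those 10 libraries in 1 gene, mt-Nd5, and at 0.524 to 1.23 times that mean (median 0.885). The share of all genes above those 10 libraries is not given here, so these counts describe these genes only. The rRNA shares of the pair were 31.8% and 11.5%, the highest and the next to lowest of all 35 libraries. Replicate 1 is titled as 4OHT but has a control source name. Its Dgcr8 RNA was 249 nuclear CPM, against 144 and 153 in the 96 h controls and 337 in replicate 2. Markers differed with treatment and within the pair: the neuroectoderm markers summed to 142 and 162 in replicates 1 and 2, against 82.0 and 83.6 in the controls. At 48 h they already summed to 137 and 140 with 4OHT, against 87.7 and 89.6 in the controls. The stem cell markers summed to 5021 in replicate 1, the lowest of the line, and 6178 in replicate 2. Their part in these values was not tested.

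mt-Nd5, a proton-pumping subunit of complex I, was the 1 gene called at 96 h in the DGCR8 line, where 13.5% of all genes were called and 8.25% were higher. It stood at 1609 and 764 nuclear CPM with 4OHT and at 623 and 621 without, and rose by 1.00 ± 0.27 (edgeR adjusted p = 0.0341). The count was 4 of 14 at an unadjusted p below 0.05 and 2 by DESeq2. The other 13 genes were higher in the fit without passing, with log2 fold changes from 0.05 for mt-Tf to 0.93 for mt-Tm. mt-Nd1 differed by 0.81 ± 0.32, mt-Rnr2 by 0.65 ± 0.46, mt-Nd2 by 0.63 ± 0.25 and mt-Rnr1 by 0.24 ± 0.39. The median was 0.64 over the 14 genes and 0.02 over all genes tested. With library totals alone these were 0.42 and -0.11, mt-Rnr1 turned to -0.014, and 413 of all genes were higher and 488 lower, against 1235 and 782.

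The DGCR8 result rests on which 4OHT library is kept. Leaving out 1 of the 4 libraries at a time, the log2 fold change ran from -0.65 to 1.32 for mt-Rnr2. It ran from -0.027 to 1.34 for mt-Nd1 and from 0.31 to 1.46 for mt-Nd5. The differences between the 96 h and 24 h effects gave 0 calls of 14 (0.18% of all genes; 0 at an unadjusted p below 0.05 and 0 by DESeq2), with mt-Nd1 at 0.90 ± 0.45, mt-Nd5 at 0.83 ± 0.38, mt-Co1 at 0.79 ± 0.46, mt-Rnr2 at 0.63 ± 0.65 and mt-Rnr1 at 0.20 ± 0.55. Whether the 96 h effect differed between the lines was tested in a joint fit: 0 of 17 genes passed (0.181% of all genes; 1 at an unadjusted p below 0.05 and 0 by DESeq2). The DGCR8 effect minus the Drosha effect was -0.67 ± 0.51 for mt-Rnr1, -0.50 ± 0.59 for mt-Rnr2, -0.60 ± 0.43 for mt-Nd4, -0.61 ± 0.50 for mt-Cytb and -0.42 ± 0.39 for mt-Nd2. Leaving out 1 library at a time, this difference ran from -1.78 to 0.18 for mt-Rnr2 and from -1.74 to -0.057 for mt-Rnr1. The summed level of 187 genes of cytosolic rRNA and other abundant nuclear noncoding RNAs moved with the pair, at 8285 in replicate 1 and 4098 in replicate 2, and was 5223 in the Drosha library, within a range of 4098 to 12565 over the floxed set. Their part in the result was not tested.

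**Figure D3:**
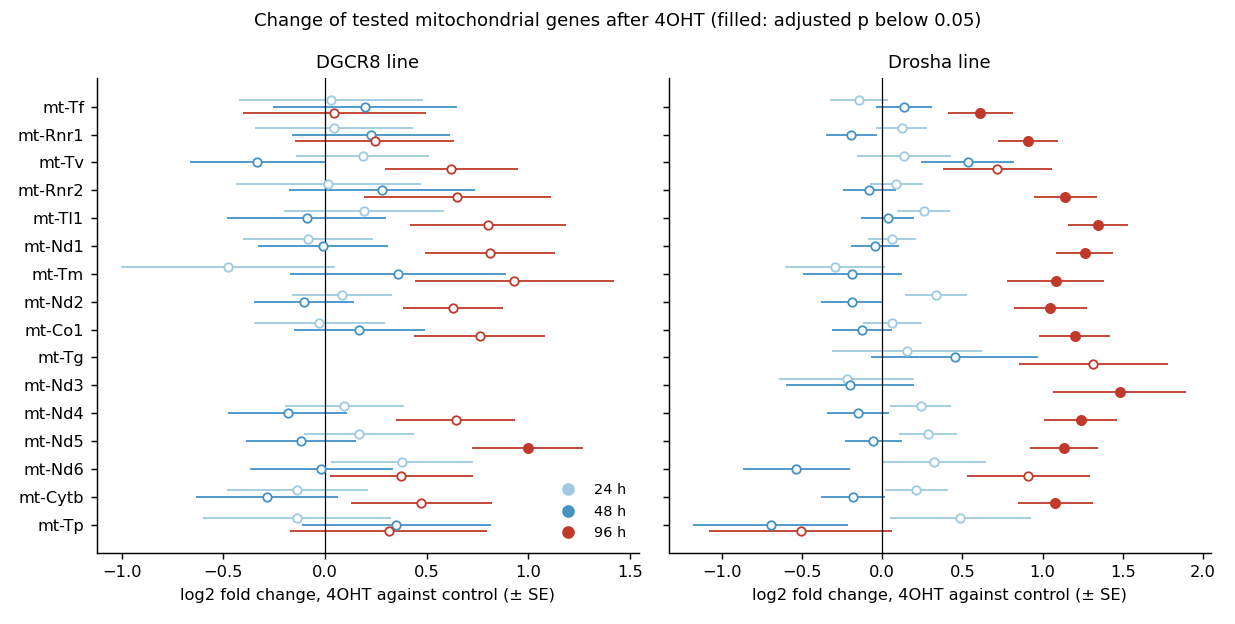
Log2 fold change, 4OHT against control, of each tested mitochondrial gene (vertical axis, map order) at 24, 48 and 96 h in the DGCR8 line (left) and the Drosha line (right); bars are SE and filled points have an edgeR adjusted p below 0.05. At 96 h, 12 of 16 genes are filled in the Drosha line and 1 of 14, mt-Nd5, in the DGCR8 line, where the bars are wider.

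Controls were also compared over time. Between 24 and 96 h, the controls of the DGCR8 line gave 0 calls of 14 (0.0601% of all genes; 0 at an unadjusted p below 0.05 and 0 by DESeq2). mt-Rnr1 differed by 0.21 ± 0.39, mt-Rnr2 by 0.22 ± 0.46, mt-Co1 by -0.23 ± 0.32, mt-Nd2 by 0.16 ± 0.25 and mt-Nd4 by -0.16 ± 0.29. In the Drosha controls 1 of 16 genes was called (5.69% of all genes): mt-Tf, the tRNA at the start of the rRNA precursor, stood at 31.1 and 44.7 nuclear CPM at 24 h and at 67.1 and 60.7 at 96 h, and rose by 0.79 ± 0.18 (edgeR adjusted p = 0.0208), where 2.76% of all genes were higher. This call was lost when any 1 of these 4 controls was left out. mt-Rnr1 differed by 0.16 ± 0.16, mt-Rnr2 by 0.07 ± 0.17, mt-Cytb by 0.66 ± 0.20 (edgeR adjusted p = 0.0663), mt-Nd2 by 0.53 ± 0.19 and mt-Nd1 by 0.40 ± 0.15. Of the nuclear lists, Elac2 (0.49 ± 0.10), Tbrg4 (0.52 ± 0.13) and Fastkd3 (0.47 ± 0.13) of RNA processing and the regulators Myc (0.77 ± 0.14) and Pprc1 (0.53 ± 0.12) were higher at 96 h (3 of 22 and 2 of 6 genes), as was Noa1 (0.51 ± 0.14), 1 of 19 genes of mitoribosome assembly. Mrps24 (-0.52 ± 0.14), 1 of 76 mitoribosomal protein genes, and the noncoding RNA gene Rn7sk (-0.64 ± 0.14) were lower. Over both lines, the share tests of 96 h against 24 h controls gave log2 differences of 0.10 for rRNA, -0.01 for protein genes and 0.13 for their ratio (exact permutation p = 0.500, 1 and 0.556; the smallest the design allows is 0.0556).

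The nuclear genes that serve the mitochondrial genome were read from lists of known function. After 96 h of 4OHT, 14 of 76 mitoribosomal protein genes fell in the DGCR8 line and 0 rose, against 5.22% and 8.25% of all genes, and their median log2 fold change was -0.31. Mrpl55 fell by 1.23 ± 0.18, Mrpl28 by 1.13 ± 0.18 and Mrpl24 by 0.94 ± 0.14. In the Drosha line 20 of the 76 fell and 1 rose, against 11.0% and 12.7% of all genes, with a median of -0.25, and Mrps18a fell by 1.18 ± 0.18, Mrps34 by 0.96 ± 0.18 and Mrpl28 by 0.95 ± 0.17. These genes encode the protein part of the ribosome whose rRNAs are mt-Rnr1 and mt-Rnr2.

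Genes of mitochondrial transcription and DNA maintenance gave calls in both directions, as did all genes, of which 13.5% were called in the DGCR8 line (8.25% rose, 5.22% fell) and 23.7% in the Drosha line (12.7% rose, 11% fell). In the DGCR8 line Tfb2m, the transcription initiation factor, rose by 1.29 ± 0.24, while Tfam, which packages the DNA and opens promoters, fell by 0.47 ± 0.12 and Polg2, a DNA polymerase subunit, by 0.70 ± 0.18; these were 3 of 18 genes. In the Drosha line 1 of 18 rose (Mterf2, 0.65 ± 0.18) and 3 fell, among them Polrmt, the RNA polymerase itself, by 0.90 ± 0.23 and the DNA helicase Twnk by 0.63 ± 0.15. Of 22 genes of RNA processing and decay, 1 fell in the DGCR8 line (Fastkd1, 0.49 ± 0.14). Among these genes 2 fell in the Drosha line, Elac2, which cuts the 3′ end of tRNAs, by 0.90 ± 0.13 and Tbrg4 by 0.62 ± 0.16, and 2 rose, among them Fastkd2 (0.56 ± 0.16). Of 19 genes of mitoribosome assembly and rRNA modification, 3 fell and 1 rose in the DGCR8 line, with Ybey, an rRNA-processing factor, down by 0.70 ± 0.17 and Trmt2b up by 0.65 ± 0.16. Here too 3 fell in the Drosha line and 0 rose, Ybey by 0.83 ± 0.21.

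The calls among the nuclear partners of the mitochondrial protein genes are to be read against the same shares of all genes, 5.22% that fell and 8.25% that rose in the DGCR8 line and 11% and 12.7% in the Drosha line. Of the nuclear complex I subunits, 3 of 35 fell in the DGCR8 line (Ndufa12 by 0.92 ± 0.23), and 4 of 36 fell and 1 rose in the Drosha line (Ndufa8 fell by 0.90 ± 0.23, Ndufs4 rose by 0.68 ± 0.15). Of those of complexes III, IV and V, 1 of 33 fell in the DGCR8 line (Atp5e, by 0.85 ± 0.21), and 3 of 34 fell and 1 rose in the Drosha line (Atp5d fell by 0.67 ± 0.18, Cox6c rose by 0.62 ± 0.20). Of 6 regulators of mitochondrial biogenesis, 1 fell in the DGCR8 line, the growth regulator Myc (by 0.93 ± 0.20). In the Drosha line 3 of the 6 fell: Myc by 0.98 ± 0.19, Esrra by 0.72 ± 0.24 and Pprc1 by 0.50 ± 0.15. The protease gene Lonp1 fell by 0.74 ± 0.12 in the Drosha line, where 3 of 10 chaperone and protease genes fell and 1 rose; in the DGCR8 line 1 of 10 fell, Hspe1 by 0.43 ± 0.13. Gm13340, with the length of mt-Co1, rose by 1.22 ± 0.25 in the Drosha line, and Gm13341 by 1.32 ± 0.31. These lists and the mitochondrial genes come from the same libraries, so the dependence on DGCR8 replicate 1 and on the single Drosha library holds for them too.

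Untreated cells of the floxed lines differed in the protein genes. The protein share of counts outside rRNA was 1.07% ± 0.0564 (SD, n = 6) in the DGCR8 controls and 1.43% ± 0.192 (n = 6) in the Drosha controls. The ranges, 0.982% to 1.13% and 1.24% to 1.70%, did not overlap. The log2 difference, DGCR8 minus Drosha, was -0.42 (exact permutation p = 0.00926, the smallest this design allows; adjusted over 15 share tests 0.0694). The rRNA share differed by 0.09 (exact permutation p = 0.426), and the number of rRNA counts per protein count was 13.9 to 22.6 in the DGCR8 line and 10.5 to 13.5 in the Drosha line (log2 difference 0.52, exact permutation p = 0.00926, adjusted 0.0694). After adjustment neither passed 0.05.

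By gene, 10 of 17 tested mitochondrial genes differed between the untreated lines in edgeR, 2 higher and 8 lower in the DGCR8 line, where 48.7% of all genes were called (23.3% higher, 25.4% lower). The count of mitochondrial genes is to be read against that background. Of the 8 lower genes, mt-Nd3 and mt-Tg passed the filter on low counts only through the Drosha line, so that the filter set their direction. mt-Nd2 stood at 357 to 422 nuclear CPM in the 6 DGCR8 controls (median 383) and at 706 to 1157 in the 6 Drosha controls (median 811), and was lower by 1.07 ± 0.14 on the log2 scale. mt-Nd1 stood at 1665 to 1992 (median 1814) and 2597 to 4035 (median 3147), a difference of -0.74 ± 0.16. mt-Cytb (-0.77 ± 0.18), mt-Nd4 (-0.70 ± 0.16) and mt-Nd5 (-0.47 ± 0.15) were lower too. The groups did not overlap for any of these 5 genes. The share of all genes without overlap is not given here, so this describes these genes only. mt-Co1 was not separated, at 5542 to 7167 (median 6469) and 5424 to 7748 (median 6293), nor were mt-Rnr1 (0.10 ± 0.19), mt-Rnr2 (0.23 ± 0.22) and mt-Nd6 (-0.38 ± 0.23). Of the tRNA genes, mt-Tl1, beside mt-Nd1, was lower by 0.70 ± 0.19, while mt-Tf (0.67 ± 0.22) and mt-Tv (0.54 ± 0.21, edgeR adjusted p = 0.0402), beside the rRNA genes, were higher. The call of mt-Tf was lost in 5 of 12 fits that left out a control, that of mt-Tv in 7 and that of mt-Nd5 in 2 (without replicate 2 of the Drosha controls at 48 or 96 h). With library totals alone the median of all genes moved from -0.01 to -0.12, 1 mitochondrial gene was higher and 8 lower (mt-Nd3 and mt-Tg again among them), mt-Rnr1 turned to -0.0096, and 2502 of all genes were higher and 4841 lower, against 3874 and 4215.

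Of the 17 tested genes, mt-Nd3 and mt-Tg had the most unequal levels between the untreated lines. They adjoin each other inside the stretch with almost no counts. mt-Nd3 (MT 9459 to 9806), a complex I subunit, stood at 4.06 to 6.45 nuclear CPM in the Drosha controls (median 5.20) and at 0 to 0.570 in the DGCR8 controls (median 0.358). Pooled over the 6 controls, it had 295 counts in the Drosha line and 17 in the DGCR8 line, a ratio, after scaling to nuclear counts, of 16.2 (95% exact conditional interval 9.95 to 28.2, counting error only). mt-Tg (MT 9391 to 9458), the glycine tRNA, had 72 counts and 1 count, a ratio of 67.2 (11.7 to 2692). These levels are a description, since both genes were tested only because of their counts in the Drosha line. In the heat set mt-Nd3 lay at 0 to 0.912 and mt-Tg at 0 to 0.0928, and the values of neither reached the range of the Drosha line. Gm10288 on chromosome 3, which RefSeq does not tie to the mitochondrial genome, followed the same division, with 11 to 25 counts in the Drosha controls and 0 to 2 in the DGCR8 controls. These levels are low beside the other protein genes, and the part played by nuclear copies was not tested.

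**Figure D4:**
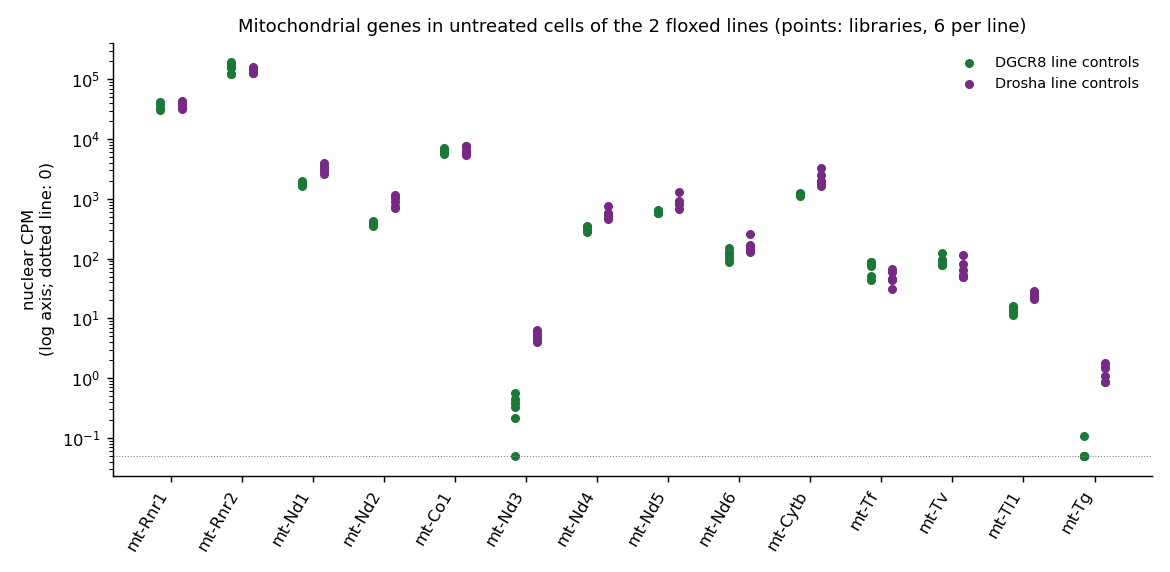
Level of 14 mitochondrial genes in untreated cells of the DGCR8 line and the Drosha line, in nuclear CPM on a log axis (dotted line: 0); each point is a library, 6 per line. The lines overlap for mt-Rnr1, mt-Rnr2 and mt-Co1 and are separate for mt-Nd1, mt-Nd2, mt-Nd3, mt-Nd4, mt-Nd5, mt-Cytb, mt-Tl1 and mt-Tg. Of these, mt-Nd3 and mt-Tg passed the filter on low counts only through the Drosha line. The share of all genes with separate lines is not given.

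Nuclear genes of mitochondrial function differed between the untreated lines in large numbers, as did all genes (23.3% higher, 25.4% lower). In the DGCR8 line 12 of 34 genes of complexes III, IV and V were higher and 0 lower (median 0.20, against -0.01 for all genes), among them Atp5b (0.39 ± 0.07) and Uqcrc2 (0.40 ± 0.10). Of complex I, 12 of 36 were higher and 3 lower, with Ndufa11 at 0.83 ± 0.11 and Ndufs5 at -2.36 ± 0.23. Of the mitoribosomal proteins 25 of 76 were higher and 6 lower, with Mrps9 at 0.70 ± 0.07 and Mrpl15 at 0.60 ± 0.05. Of the chaperones and proteases 7 of 10 were higher and 1 lower, among them the folding pair Hspe1 (0.76 ± 0.09) and Hspd1 (0.51 ± 0.07). Polg, the DNA polymerase, was higher by 0.77 ± 0.09 and Tfb1m, an rRNA methyltransferase, by 0.62 ± 0.12 (4 higher and 3 lower of 18), and of the RNA processing genes 10 were higher and 3 lower of 22. Several marker sums moved with the lines. The stem cell markers summed to 5564 to 6004 in the DGCR8 controls and to 3787 to 4298 in the Drosha controls. The neuroectoderm markers overlapped, at 78.9 to 89.6 and 82.2 to 112. The 8 fibroblast markers summed to 6.00 to 7.87 in the DGCR8 controls and to 21.3 to 60.3 in the Drosha controls. The 4 trophoblast markers summed to 3.19 to 9.02 in the DGCR8 controls and 19.5 to 34.1 in the Drosha controls, and the 6 primitive endoderm markers to 48.3 to 60.9 and 64.4 to 86.8. Their part in these differences was not tested.

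After 1 h at 42 °C, each line had more rRNA counts per protein count than at 37 °C. The number went from 15.2 to 16.5 in parental 1 and from 14.2 to 17.2 in parental 2. It went from 9.99 to 15.2 in 1d1, from 9.69 to 14.3 in 3xU, from 12.8 to 16.0 in 1d2 and from 13.1 to 14.7 in 2c4d. The mean log2 difference was 0.34, higher in 6 of 6 lines (exact sign-flip permutation p = 0.03125, the smallest 6 pairs allow), which did not pass after adjustment over 15 share tests (0.156). Its parts moved less evenly: the rRNA share was higher in 4 of 6 lines (log2 difference 0.16, exact permutation p = 0.219) and the protein share was higher in 1 of 6 (-0.16, exact permutation p = 0.156).

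mt-Nd1 was the gene whose level was lower at 42 °C in 6 of 6 lines. It went from 3317 to 2486 nuclear CPM in parental 1, from 3675 to 3048 in parental 2, from 3768 to 3097 in 1d1, from 5587 to 3523 in 3xU, from 4704 to 2996 in 1d2 and from 4271 to 3328 in 2c4d. The log2 differences lay between -0.67 and -0.27. mt-Cytb was lower in 5 of 6 lines, since it was higher in 1, while mt-Co1 and mt-Nd4 were higher in 3 of 6, mt-Nd2 in 4, mt-Nd5 in 2 and mt-Nd6 in 2. Of the rRNA genes, mt-Rnr1 was higher at 42 °C in 5 of 6 lines and mt-Rnr2 in 4 of 6. mt-Tm, the methionine tRNA, was higher in 6 of 6, by 0.03 to 1.00 on the log2 scale, at levels of 2.92 to 7.46 nuclear CPM. The share of all genes with the same direction in 6 of 6 lines is not given here, so these counts describe these genes only.

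The edgeR test across libraries called 0 of 14 mitochondrial genes for heat in the METTL3KO lines (0.185% of all genes; 1 at an unadjusted p below 0.05 and 0 by DESeq2) and 0 of 14 in the parental lines (0.0192% of all genes; 1 and 0). In the METTL3KO lines mt-Nd1 differed by -0.53 ± 0.16, mt-Nd6 by -0.55 ± 0.37, mt-Cytb by -0.32 ± 0.20, mt-Rnr1 by 0.26 ± 0.16 and mt-Rnr2 by 0.17 ± 0.24. In the parental lines mt-Nd1 differed by -0.34 ± 0.22, mt-Nd6 by 0.33 ± 0.52, mt-Nd2 by 0.21 ± 0.32, mt-Rnr1 by -0.15 ± 0.23 and mt-Rnr2 by 0.08 ± 0.34. Since both temperatures were sampled from the same line, the fit was repeated with the cell line as a block. It called 1 of 14 genes in the METTL3KO lines, where 6.77% of all genes were called, 3.87% higher and 2.9% lower: mt-Nd1 fell by 0.52 on the log2 scale (edgeR adjusted p = 0.00688). In the parental lines it called 0 of 14 (0.761% of all genes), with mt-Nd1 at -0.35 (edgeR adjusted p = 0.245). The interaction, the heat effect in METTL3KO minus that in parental lines, was 0 of 14 in either fit (0% of all genes without the block and 0.0128% with it; 1 gene at an unadjusted p below 0.05 and 0 by DESeq2 without the block). It was 0.41 ± 0.28 for mt-Rnr1, 0.09 ± 0.42 for mt-Rnr2, -0.88 ± 0.64 for mt-Nd6, -0.29 ± 0.34 for mt-Cytb and -0.28 ± 0.35 for mt-Nd4.

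**Figure D5:**
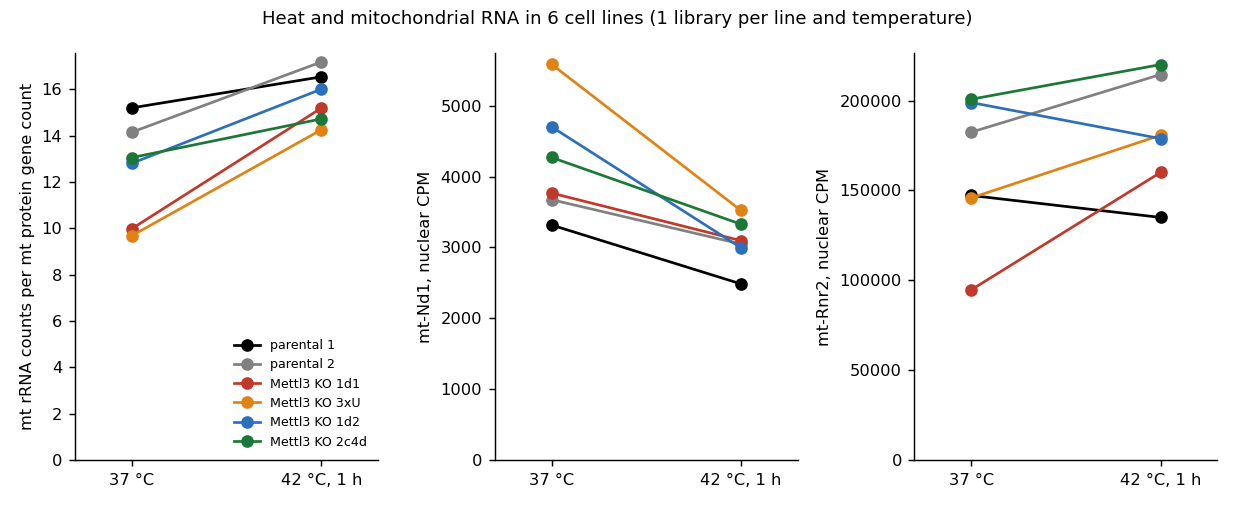
Mitochondrial rRNA counts per protein gene count (left), mt-Nd1 level (middle) and mt-Rnr2 level (right), both in nuclear CPM, at 37 °C and after 1 h at 42 °C; each line joins the 2 libraries of a cell line. At 42 °C the left value is higher and the mt-Nd1 level lower in 6 of 6 lines, while mt-Rnr2 is higher in 4 of 6. The share of all genes lower in 6 of 6 lines is not given.

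Between METTL3KO and parental lines, the test without a block called 0 of 14 mitochondrial genes at 37 °C (0.902% of all genes; 4 at an unadjusted p below 0.05 and 0 by DESeq2) and 0 of 14 at 42 °C (0.64% of all genes; 0 and 0). At 37 °C, mt-Nd2 stood at 1020.5, 1964, 1522 and 959 nuclear CPM in the METTL3KO lines 1d1, 3xU, 1d2 and 2c4d. It stood at 784 and 806 in parental 1 and 2, a difference of 0.71 ± 0.28 (edgeR adjusted p = 0.243). mt-Cytb (0.67 ± 0.25) and mt-Nd4 (0.66 ± 0.26) differed in the same direction, while mt-Rnr1 (-0.19 ± 0.19) and mt-Rnr2 (-0.11 ± 0.30) did not follow. At 42 °C the values were 0.45 ± 0.28 for mt-Nd2, 0.38 ± 0.24 for mt-Cytb, 0.38 ± 0.25 for mt-Nd4, 0.22 ± 0.20 for mt-Rnr1 and -0.02 ± 0.30 for mt-Rnr2. Over both temperatures, the protein share was 1.26% to 1.92% in the METTL3KO lines and 1.04% to 1.54% in the parental lines, a log2 difference of 0.29 (exact permutation p = 0.200; with 4 lines against 2 the smallest possible is 0.0667). This difference was 0.10 without parental 1 and 0.48 without parental 2. The rRNA share differed by 0.01 (exact permutation p = 0.933) and the ratio by -0.27 (exact permutation p = 0.133). Some markers moved with the METTL3KO lines: over both temperatures, the primitive endoderm markers summed to 11.1 to 16.1, against 50.2 to 54.6 in the parental lines, and the trophoblast markers to 7.69 to 16.8, against 2.83 to 4.93. The neuroectoderm markers overlapped, at 59.6 to 181 in the METTL3KO lines and 82.8 to 112 in the parental lines. The stem cell markers summed to 3261 to 4066 in 1d1, 3xU and 2c4d and to 5442 and 6347 in 1d2, against 5637 to 6560 in the parental lines. Their part in these differences was not tested.

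Of the nuclear lists, 0 genes were called for heat without the block. With the cell line as a block, the METTL3KO lines had Trmt10c, a subunit of the enzyme that cuts the 5′ end of mitochondrial tRNAs, higher by 0.75 ± 0.09 at 42 °C, 1 of 22 genes of RNA processing. Mrm1 (1.04 ± 0.16) and Rpusd4 (0.63 ± 0.14), which modify mitochondrial rRNA, were higher and Gtpbp10 lower (-0.46 ± 0.12), 3 of 19 genes. Polrmt (-0.42 ± 0.10) and Tefm, its elongation factor (-0.40 ± 0.10), were lower, 2 of 18 genes of transcription and DNA maintenance. The chaperonin cofactor Hspe1 was higher (0.49 ± 0.09), as were the ATP synthase genes Atp5g1 (0.68 ± 0.13) and Atp5g3 (0.41 ± 0.08), while Uqcrh of complex III (-0.33 ± 0.08) and the regulators Myc (-0.64 ± 0.16) and Pprc1 (-0.30 ± 0.08) were lower. These were 1 of 10 chaperone and protease genes, 2 higher and 1 lower of 33 genes of complexes III, IV and V, and 2 lower of 6 regulators, where 3.87% of all genes were higher and 2.9% lower. In the parental lines 1 listed gene was called in that fit, 1110008L16Rik (-0.73 ± 0.14).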

How the data were processed

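RNA counts per gene were analysed in 35 libraries. The authors deposited whole-number counts per gene. RNA was depleted of ribosomal RNA and made into ScriptSeq libraries, per the labels' protocols, and Bowtie and mm10 are named per the submitters' processing notes. Options, annotation and strand are not given in the sources used here. Deposited ChIP counts per 5 kb window (24 libraries) were read for the window of the nuclear copies only, and 1 column of per-sample values was not used. Symbols and positions came from RefSeq GRCm38.p6.

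Counts of all genes were fitted with edgeR 4.0.16 in R 4.3.3: TMM scaling, filterByExpr by group, quasi-likelihood tests, Benjamini-Hochberg adjustment over all genes tested, threshold 0.05. DESeq2 1.42.0 was an alternative. The DGCR8 line, the Drosha line and the heat set were fitted separately, and both floxed lines jointly for differences between lines. Shares were tested with exact permutation tests in Python 3.11.15 with scipy 1.17.1, 15 in all. In heat comparisons the libraries of a line pair across temperatures, since the labels name the same line; deviations correlated at 0.646 to 0.85. For the floxed set, the labels do not say whether libraries with the same replicate number belong together. On simulated data of the same size (14973, 16262 and 15635 genes), edgeR called 45 of 100 genes changed 2-fold in the DGCR8 line at 96 h. It called 57 of 100 in the Drosha line at 96 h and 22 of 100 for heat in the METTL3KO lines. Of the changed genes, 0 were called in the wrong direction. Of the unchanged genes, 12, 10 and 6 were called, in the same order.

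The members and lists were chosen with earlier results of these data known. Named in each comparison are mt-Rnr1, mt-Rnr2, up to 8 called protein genes with the smallest p (or the 3 with the smallest p where fewer than 3 were called), called tRNA genes, and up to 3 called genes of each nuclear list; mt-Co1, mt-Nd1 and mt-Nd6 serve as level examples. mt-Tm and the genes counted by line in the heat set, and Gm10288, were named after their values were seen. Alternatives were other scalings, no filter on low counts, DESeq2, a block, only the groups compared, and leaving out each library.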

Additional observations from a re-analysis of the deposited data

Results flagged for a closer look

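In the groups of 4 METTL3KO libraries, 34 group-and-measure combinations were examined and 4 had a library far from the other 3. These measures share libraries, so 4 of 34 is not set against a chance rate. At 37 °C, line 1d1 had the lowest protein share, 1.26%, where the other lines lay at 1.81% to 1.92%. Line 3xU had the highest mt-Nd5 at 37 °C, 1287 nuclear CPM against 768 to 815. At 42 °C, line 2c4d had the highest mt-Co1, 9704 against 6089.9 to 6668, and line 3xU the highest mt-Cytb, 2874 against 2109.9 to 2149.7.

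In the Drosha line, 5 genes had a 4OHT effect at 96 h that differed from the effect at 24 h by a test of the difference itself in edgeR. The log2 differences were 1.05 for mt-Rnr2, 1.09 for mt-Tl1, 1.20 for mt-Nd1, 1.14 for mt-Co1 and 1.00 for mt-Nd4. They rest on the single 96 h 4OHT library, and their number fell to 1 when replicate 1 of the 24 h controls or replicate 1 of the 24 h 4OHT libraries was left out.

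The ChIP libraries, which no comparison above uses, were read in the 5 kb window chr1:24610001-24615000 (mm10), which contains the nuclear copies Gm10222 and Gm10925. Reads there may match both the mitochondrial genome and a nuclear copy, and their part was not tested. The share of counts in the window was divided by that of an input library. For DGCR8 the ratio was 6.82 (95% exact interval 4.48 to 10.8, counting error only) in wild-type cells and 19.6 (13.1 to 30.6) in Mettl3-KO cells, both against the wild-type input. In the heat shock ChIP set it was 29.6 at 37 °C and 14.9 after heat shock for DGCR8. For METTL3 in that set it was 70.3 and 30.8 in line H4, and 27.5 and 21.0 in line H5. Both temperatures of that set were divided by an input from 37 °C. In the other sets it was 17.0 for Drosha with DSG, 2.41 for DGCR8 with DSG, 5.37 and 2.73 for METTL3 clone 1, and 5.45 and 3.26 for METTL3 clone 2. The Dicer library had a ratio of 1.25 (0.811 to 1.96), whose interval includes equality with input.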

How the results depend on the processing

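Of 115 alternatives for the numbers of called mitochondrial genes, leaving-out aside, 99 stayed within 1.5 times and 16 did not. Without a filter on low counts, DGCR8 calls became 1 at 48 h, 9 at 96 h and 4 for 96 h minus 24 h; Drosha calls became 1 at 24 h, 3 at 48 h, 14 for 96 h minus 24 h and 7 for the controls over time; the difference between lines at 96 h gave 3. DESeq2 gave 2 for DGCR8 at 96 h. Fitting only the groups compared gave 0 for DGCR8 at 96 h, 1 for Drosha at 24 h, 10 for 96 h minus 24 h and 2 for the controls over time. For the Drosha line at 96 h, mt-Tf was also lost with library totals alone and with the replicate block, and mt-Tm with library totals alone and with DESeq2. The share of all genes called in each alternative or refit, here and below, is not given. These counts alone are therefore no result about the mitochondrial genes. The cause was not tested.

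Whether same-numbered libraries of the floxed set belong together is not stated in the labels. Their deviations correlated at -0.597, 0.461 and 0.422 in the DGCR8 line and at -0.0898 and -0.294 in the Drosha line. The replicate block gave 9 calls for Drosha 96 h minus 24 h and 3 for its controls over time. The block on cell line gave 1 call for heat in METTL3KO lines. With the lines not paired, the heat difference in rRNA counts per protein count was 0.31 (exact permutation p = 0.00476, unadjusted). That version ignores that both temperatures were sampled from the same line. The paired sign-flip permutation test did not pass after adjustment over 15 share tests (0.156). Apart from these and mt-Tf, the blocks ended no call of a named gene.

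Shares close to 0 on the log2 scale changed sign: the protein share of 96 h against 24 h controls was 0.017 on a linear scale; with mt-Rnr2 alone as rRNA, METTL3KO against parental was -0.0030 and the ratio with 4OHT 0.00072; without the 96 h libraries, the 4OHT differences were -0.0029 for the protein share and 0.067 for the ratio. With library totals alone, mt-Rnr2 in DGCR8 cells at 24 h became -0.0025, mt-Rnr1 at 96 h -0.014 and for 96 h minus 24 h -0.036, mt-Rnr1 between lines -0.0096, and mt-Rnr2 in METTL3KO against parental lines at 42 °C 0.063; the last was 0.0056 with mitochondrial genes left out of the scaling and 0.013 without a filter.

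Leaving out single libraries gave the following lowest and highest values. Calls ran from 0 to 13 for DGCR8 at 96 h and 0 to 8 for 96 h minus 24 h; for Drosha from 0 to 2 at 48 h (2 without 4OHT replicate 2), 1 to 7 for 96 h minus 24 h and 0 to 2 for controls over time; and from 0 to 8 for the difference between lines. The log2 share differences ran from -0.14 to 0.16 for rRNA in METTL3KO against parental, -0.11 to 0.094 for the protein share over time, -0.065 to 0.024 for the ratio with 4OHT and -0.0015 to 0.25 for the ratio over time. In DGCR8 cells, mt-Rnr1 ran from -0.087 to 0.17 at 24 h, -0.85 to 0.86 at 96 h and -0.88 to 0.81 for 96 h minus 24 h; mt-Rnr2 from -0.21 to 0.29, -0.65 to 1.32 and -0.66 to 1.30; mt-Nd1 from -0.027 to 1.34 at 96 h; mt-Co1 from -0.10 to 1.33 for 96 h minus 24 h; and mt-Rnr2 from -0.0032 to 0.50 over time in controls. In Drosha cells at 24 h, mt-Rnr1 ran from -0.068 to 0.30 and mt-Rnr2 from -0.16 to 0.31. At 48 h the ranges were -0.41 to 0.060 for mt-Rnr1, -0.26 to 0.080 for mt-Rnr2, -0.47 to 0.085 for mt-Nd2, -1.44 to 0.025 for mt-Nd6 and -0.50 to 0.072 for mt-Cytb. mt-Rnr2 ran from -0.051 to 0.18 over time in Drosha controls and from -1.78 to 0.18 for the difference between lines. With heat in parental lines, mt-Rnr1 ran from -0.31 to 0.021, mt-Rnr2 from -0.35 to 0.41 and mt-Nd6 from -0.42 to 0.82. mt-Rnr2 ran from -0.021 to 0.31 with heat in METTL3KO lines, -0.27 to 0.10 and -0.33 to 0.41 for METTL3KO against parental at 37 and 42 °C, and -0.23 to 0.52 for the interaction.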

Other observations

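The runs of title numbers in the heat set also differed in the make-up of mitochondrial RNA. The libraries with title numbers 24 to 29 had 2.90 to 3.54 counts on mt-Rnr2 per count on mt-Rnr1, and those with numbers 30 to 35 had 3.33 to 5.13. mt-Tp, the proline tRNA on the strand of mt-Nd6, lay at 2.47 to 7.67 nuclear CPM in the first run and at 0.224 to 1.49 in the second, so that the runs did not overlap. The share of all genes without overlap is not given, so this describes mt-Tp only. Both runs hold parental and METTL3KO lines at both temperatures.

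Across all 35 libraries the number of counts on mt-Rnr2 per count on mt-Rnr1 ran from 2.90 to 5.85, with a median of 3.95.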
